A study of Mus musculus with 15 samples.

Results

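Whole lungs of mice given ovalbumin (OVA) to model allergic asthma were compared with lungs of saline mice, 10 libraries of the 15 in the series. The comparison was chosen with earlier results of these data known. Its libraries were taken by their labels, as the animals of either regimen that received an isotype control antibody. That is a non-targeting antibody given in place of a drug. All animals were Wild Type females of the strain Balb, 5 with saline and 5 with OVA, 1 library per animal. The saline mice had a sham sensitisation; the OVA mice were sensitised by injection into the peritoneum and challenged with nebulized OVA. The third group, 5 OVA mice treated with 30 mg/kg of anti-IL-4Ra antibody, entered the low-count filter, the scaling and the shared estimate of the spread between animals. Where a covariate was added to the fit, that group also entered the estimate of the covariate's slope. No value of that group is reported here. The sources used here do not give ages, doses of OVA, the number of challenges or the time from the last challenge to collection, which limits how the state of the lungs can be placed in the course of the disease.

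In this model an inhaled protein is met by helper T cells and innate lymphoid cells of type 2, which secrete IL-4, IL-5 and IL-13. IL-5 sustains eosinophils, IL-13 turns airway epithelium towards mucus secretion, and IL-4 drives B cells to switch antibody class. Both IL-4 and IL-13 act through the transcription factor STAT6. Whole lung also holds capillaries, fibroblasts and alveolar epithelium, which share the counts of a library with any leukocytes that enter.

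The libraries held 16774285 to 27570666 expected counts with saline and 10042825 to 14706131 with OVA, with 17923 to 18407 and 18051 to 18393 genes detected. Lung identity was present in every library: Sftpc, Scgb1a1 and Ager, made by alveolar type 2, club and alveolar type 1 cells, had means of 7696, 14353 and 1331 CPM (counts scaled by the library's normalised total) with saline and 3469, 4777 and 549.9 CPM with OVA. Rn45s, the ribosomal RNA precursor, took 1.19 to 2.88% of counts with saline and 4.31 to 12.4% with OVA, highest in OVA replicates 5 and 2. Because the ranges do not overlap, an effect of RNA class on the counts and an effect of OVA cannot be told apart. With the log2 Rn45s share as a covariate 486 genes were called higher and 264 lower, among them 474 of the genes called higher without it and 240 of those called lower. That fit held all 15 libraries, so the third group helped to set the slope of the covariate. With the saline and OVA libraries alone, the same covariate left 97 genes higher and 9 lower. For most groups below, the calls kept in the covariate fit of all 15 libraries are given in the same paragraph. In bulk lung, fewer cells of a type and less RNA per cell cannot be told apart.

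Of 15905 genes tested, 3069 were called higher and 2829 lower with OVA (edgeR quasi-likelihood test, Benjamini-Hochberg adjusted p under 0.05), which is 37.1% of genes in either direction, 19.3% higher and 17.8% lower. At 2-fold or more, 1487 genes (9.35%) rose and 774 (4.87%) fell. The median log2 fold change over all genes was 0.02. The rises were larger than the falls. By 3 or more on the log2 scale, 166 genes rose and 10 fell, and between 2 and 3, 349 rose and 45 fell. Below 1, the order was the opposite, with 1582 higher and 2055 lower. Genes called higher took 11.5 to 15.2% of a library's counts with saline and 25.3 to 34.1% with OVA, and genes called lower 34.2 to 37.8% and 16 to 24.6%. These genes were selected by their calls in the same libraries, so the separation of the groups in both shares follows from the selection. Rn45s and the nuclear RNA Malat1 are among the genes called higher and enter that share. For 4235 genes, 26.6% of those tested, the 5 OVA values lay wholly above (1926 genes, 12.1%) or wholly below (2309 genes, 14.5%) the 5 saline values.

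**Figure D1:**
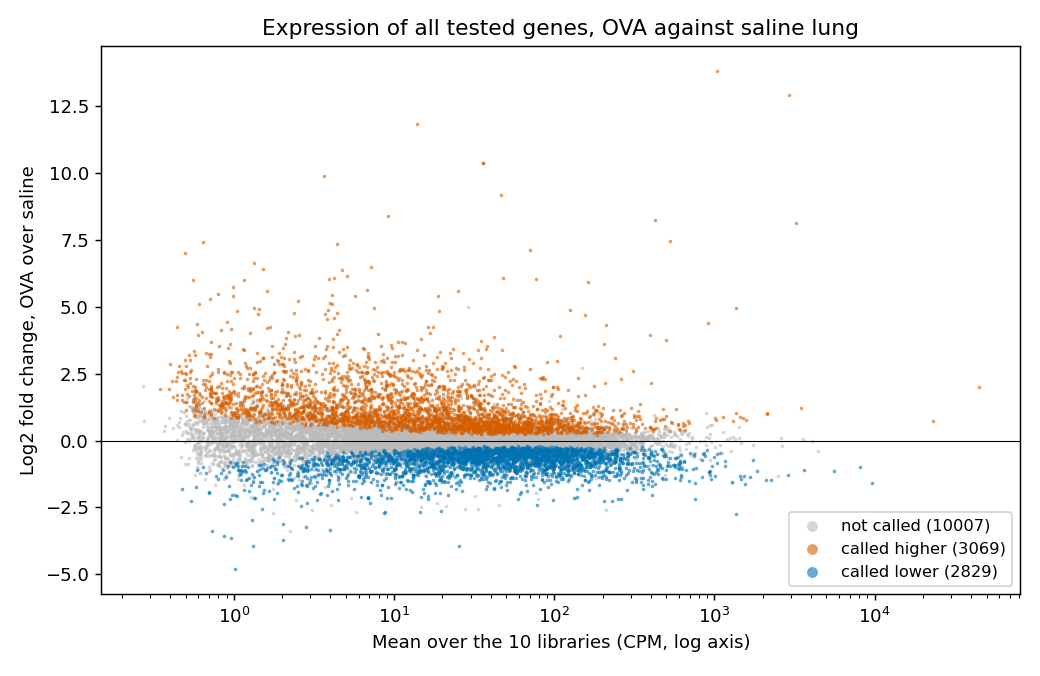
Log2 fold change, OVA over saline, of each of the 15905 genes tested (vertical axis) against its mean CPM over the 10 libraries (log axis). Orange points are the 3069 genes called higher and blue points the 2829 called lower, and the orange points reach much farther from 0 than the blue. The fitted value of a gene near 0 in a group depends on the prior count of the fit.

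Throughout, the number in parentheses after a gene is its log2 fold change, OVA over saline, per-library values are in CPM in the order of replicates 1 to 5, and "rose" or "fell" means that the gene passed the adjusted p of edgeR above. Groups of genes are described by their counts and their median, to be read against 19.3% higher, 17.8% lower and a median of 0.02 over all genes.

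Among single genes, the checkpoint ligand Pdcd1lg2 (PD-L2) had the smallest p of all. It was at 2.26, 1.40, 1.26, 1.96 and 1.83 CPM in the saline libraries and 24.7, 35.1, 24.6, 44.1 and 38.6 CPM in the OVA libraries. Each OVA library was far above every saline library (log2 fold change 4.25, SE 0.28, adjusted p = 5.1e-07). The other rises with the smallest p included Ccl8, a chemokine ligand of CCR8 (6.08), the inhibitory Fc receptor Fcgr2b (2.22), the T cell checkpoint Ctla4 (3.17), the creatine synthesis enzyme Gatm (2.30) and Ocstamp, a gene of macrophage fusion (5.22). The falls with the smallest p included Tril, an accessory to Toll-like receptors (-2.03), the organic anion exporter Abcc3 (-1.39), the growth factor feedback inhibitor Spry1 (-1.66), the ligand Wnt10b (-2.15), the platelet-derived growth factor chain Pdgfb (-1.18) and Esm1, a product of endothelial tip cells (-2.66). The genes at 100 CPM or more whose interval lay closest to no change were Usp4 (0.01), Glyr1 (0.01), Atf7ip (0.02) and the corepressor Ncor1 (-0.01).

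Genes of a germinal centre reaction, in which B cells mutate and select their antibodies with help from follicular T cells, stood high in OVA lung. Of 11 tested germinal centre B cell markers 7 rose and 1, Lmo2, fell (median 1.56), and Fas was not called. By their mean, these B cell markers were highest in OVA replicates 1 and 2, as given below. Of 14 T follicular helper and exhausted cell markers 11 rose and none fell (median 1.71). The risers held Mybl1 (3.37), Mef2b (3.09) and Gcsam (2.74) among B cell genes, and the costimulator Icos (2.49), the checkpoint Pdcd1 (3.22), the inhibitory receptor Lag3 (2.17) and the follicle-homing receptor Cxcr5 (1.92) among T cell genes. Il21, the cytokine of follicular helper T cells, had 3 counts over the saline libraries and 150 over the OVA libraries, a ratio of 84.3 (95% exact interval 28.3 to 414, counting error only). The repressor Bcl6, which both lists hold, was not called (0.29, adjusted p = 0.27). With Rn45s as a covariate 1 and 3 members stayed called higher.

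Innate lymphoid cells of type 2 (ILC2) produce IL-5 and IL-13 without antigen. Of 17 tested ILC2 markers 9 rose and 3 fell (median 1.10). Risers were the alarmin receptors Il1rl1 (1.77), which binds IL-33, and Il17rb (1.67), which binds IL-25, with the cytokines Il13 (4.73) and Il5 (2.57). Il13 was at 0.0376, 0.0775, 0, 0.218 and 0.183 CPM in the saline libraries and 2.05, 2.48, 1.49, 5.06 and 2.56 CPM in the OVA libraries. It was close to 0 in each saline library and higher in each OVA library (log2 fold change 4.73, SE 0.75, adjusted p = 0.00032). The growth factor Areg (-1.0) and the stem cell factor receptor Kit (-0.80) fell, and the lineage factors Gata3 (0.22) and Rora (-0.38) were not called. Several risers (Il13, Il5, Icos) are also made by T helper 2 cells. Of 8 markers of CD8 and cytotoxic T cells none rose, and the killing proteins Gzmb (-1.37) and Prf1 (-1.18) fell. These falls are 25% of the list, against 17.8% over all genes. The defining Cd8a and Cd8b1 were not called. The mean log2 CPM over that list, minus the saline mean, overlapped between the groups (-0.44 to 0.55 with saline, -0.97 to 0.56 with OVA). Once the Rn45s share was a covariate, 5 ILC2 markers stayed called higher, and no ILC2 or CD8 marker stayed lower.

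Myeloid markers gave calls in both directions. Of 18 interstitial macrophage markers 8 rose and 2 fell. The risers included the chemokine Ccl7 (2.61), the complement chains C1qb (1.41), C1qa (1.28) and C1qc (1.10) and the haemoglobin scavenger receptor Cd163 (1.70). Of 12 markers of non-classical monocytes, which patrol vessel walls, 6 fell and 2 rose (median -0.91). The fallers included the fractalkine receptor Cx3cr1 (-1.47), Treml4 (-2.11) and the orphan nuclear receptor Nr4a1 (-0.95). Of 10 classical monocyte markers 3 rose, and the defining Ly6c2 (-0.25) and Ccr2 (0.20) were not called. Of 13 genes of macrophages in fibrotic lung 4 rose, among them Spp1 (2.31) and Trem2 (1.69). Adjusted for the Rn45s share, 5 interstitial macrophage markers stayed called higher, as did 2 classical monocyte and 1 fibrosis macrophage genes, and 2 non-classical monocyte markers stayed lower.

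Dendritic cells carry antigen from lung to lymph node, and of 12 genes of that migratory state 8 rose and none fell (median 0.73), or 5 rose without OVA replicate 2 or saline replicate 2. They included the T helper 2 chemokines Ccl22 (3.32) and Ccl17 (1.56), the maturation marker Cd83 (2.77), the actin bundler Fscn1 (0.96) and Relb (0.60); their homing receptor Ccr7 (0.62) was not called. Ccl22 was at 3.58, 4.07, 2.07, 5.01 and 2.75 CPM in the saline libraries and 24.9, 60.3, 27.0, 31.7 and 31.1 CPM in the OVA libraries, and the groups did not overlap (log2 fold change 3.32, SE 0.31, adjusted p = 1.1e-05). Type 2 conventional dendritic cell markers gave 5 of 11 higher, with the lectins Mgl2 (1.88) and Clec10a (1.58), the growth factor receptor Flt3 (1.28) and Irf4 (2.58). Type 1 markers gave 5 of 9 higher, with Batf3 (2.39) and Xcr1 (0.85), and 2 lower. Of plasmacytoid dendritic cell markers 7 of 12 rose, but the most specific of them, Siglech (-0.05), was not called, and the risers Spib (2.09) and Bcl11a (2.09) are also B cell genes. Another 2 of that list fell, among them the interferon-induced Bst2 (-0.52). In the fit with the Rn45s covariate 3 migratory genes and 2 type 2 genes stayed called higher, and no type 1 or plasmacytoid gene did.

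Endothelium lines the capillaries in which blood takes up oxygen, and its capillary and arterial markers gave falls and no rises with OVA. Of 16 markers of aerocytes, the capillary cells of gas exchange, 15 fell and none rose (median -1.11). Of 15 general capillary markers 13 fell and none rose (median -0.97), and of 16 arterial markers 12 fell and none rose (median -0.96). Kdr, the main receptor for vascular endothelial growth factor, was at 934, 883, 919, 754 and 984 CPM in the saline libraries and 280.2, 211, 389, 410.4 and 299.9 CPM in the OVA libraries. Every OVA animal lay far below the lowest saline animal (log2 fold change -1.49, SE 0.23, adjusted p = 0.00029). Other fallers were the peptide ligand Apln (-1.82) and its receptor Aplnr (-1.11), the angiopoietin receptor Tek (-1.40), the vasoconstrictor Edn1 (-2.10) and the Notch ligand Dll4 (-1.11). Venous and activated endothelium was mixed, with 7 of 17 lower and 2 higher. Its adhesion molecule of leukocyte rolling, Selp (0.69), rose and that of firm adhesion, Icam1 (-0.68), fell, while Vcam1 (0.29) and Sele (0.50) were not called. Under the Rn45s covariate 4 aerocyte markers and 1 arterial marker stayed called lower, and no general capillary or venous marker did.

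In the stromal cells around the vessels, falls outnumbered rises. Of 16 pericyte and vascular smooth muscle markers 10 fell and none rose, with Pdgfrb (-1.14), Notch3 (-1.09) and Cspg4 (-0.73). Of 21 fibroblast markers 14 fell and 3 rose. The fallers were led by genes of alveolar fibroblasts, with Ces1d (-1.61), Scube2 (-2.41) and Inmt (-2.20), the transcription factor Tcf21 (-1.66) and Pdgfra (-1.08). The risers were collagens, Col1a1 (0.91), Col1a2 (0.65) and Col14a1 (0.70). Scube2 was at 125, 109, 149.9, 117 and 151 CPM in the saline libraries and 23.2, 12.2, 36.4, 31.2 and 19.2 CPM in the OVA libraries, with no overlap between the groups (log2 fold change -2.41, SE 0.43, adjusted p = 0.00074). Airway smooth muscle and myofibroblast genes gave few calls: of 15 tested 2 fell and none rose, and the contractile genes Acta2 (0.34) and Myh11 (0.24) were not called. With Rn45s as a covariate 2 pericyte markers and 1 fibroblast marker stayed called lower. In that fit the smooth muscle list turned, with 3 genes called higher that were not called without it, none lower, and a median of 0.61 in place of -0.18.

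The rarer epithelial cells of the airway gave calls in both directions. Of 11 basal cell markers 2 rose, the lineage factor Trp63 (1.67) and the water channel Aqp3 (2.11), and 3 fell, Igfbp2 (-1.58), Bcam (-1.10) and Icam1 (-0.68), while the keratins Krt14 (1.30) and Krt15 (-0.40) were not called. Of 9 tuft cell markers 3 rose, with Dclk1 (1.79) and Avil (1.08), 2 fell, and the ion channel Trpm5 (0.13) was not called. Of 10 neuroendocrine markers 4 fell and none rose, with the serotonin synthesis enzyme Ddc (-1.24) and the vesicle protein Syp (-0.76). Of 16 genes of the transitional state between alveolar type 2 and type 1 cells 1 rose and 3 fell, and the state's marker Krt8 (-0.08) was not called. Of 11 mesothelial markers 3 fell, among them Upk3b (-1.44), and 1 rose, the complement gene C3 (1.21). Of all these calls 1 tuft and 1 transitional gene stayed higher with the Rn45s covariate, and none stayed lower.

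Among genes of red cells and platelets falls outnumbered rises. Of 10 red cell genes 9 fell and none rose (median -1.47), and of 15 platelet genes 6 fell, with Ppbp (-1.50) and Tubb1 (-1.54); their single riser was the transcription factor Gata1 (1.54), which eosinophils also use. Red cell falls numbered 5 without OVA replicate 2, saline replicate 3 or saline replicate 4, and platelet falls 3 without OVA replicate 2 or 4 or saline replicate 3 or 5. Fat cell genes had the lowest median of any list, -2.49, but none of 9 was called by edgeR, DESeq2 or limma-voom, and none had an unadjusted p under 0.05. Adipoq, an adipocyte hormone, was at 233, 6.39, 0.101, 13.2 and 34.1 CPM in the saline libraries and 42.3, 1.24, 3.31, 1.57 and 0.513 CPM in the OVA libraries. Its values ranged widely within each group, and the groups overlap (adjusted p = 0.22). Of 12 heart and pulmonary vein muscle genes 1 fell, Myh7 (-1.36), and none rose. No red cell or platelet gene stayed called with the Rn45s covariate, and the red cell median was -0.47 in that fit; Myh7 stayed lower. The part of blood or fat content in the other results was not tested.

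**Figure D2:**
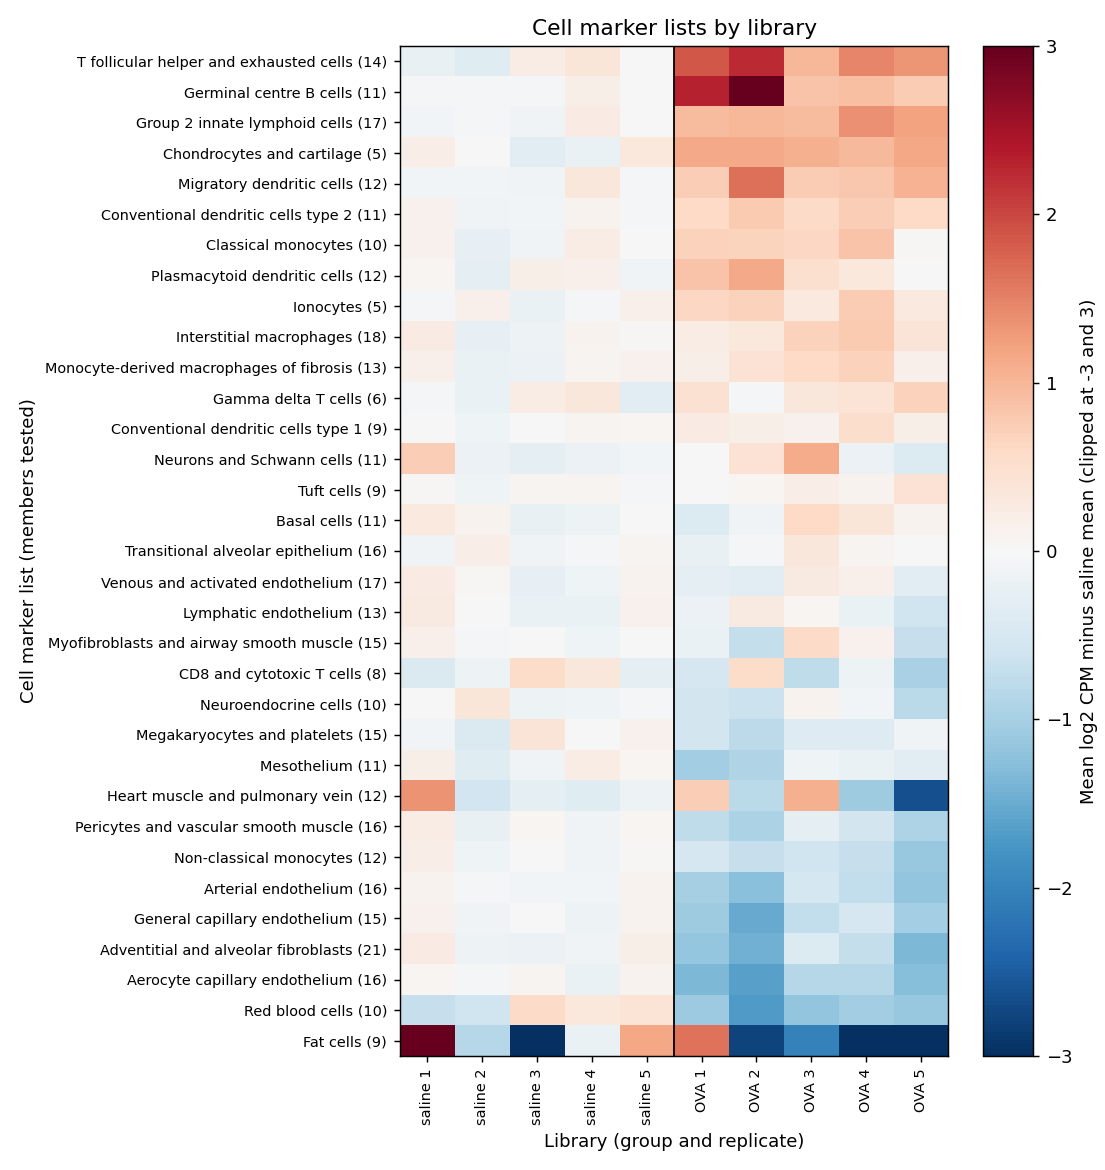
Mean log2 CPM over the tested members of each cell marker list, minus the mean of the 5 saline libraries (colour, log2 units), for each of the 10 libraries (columns) and each list (rows, sorted by the OVA mean). Markers of follicular helper T cells and germinal centre B cells are at the top and those of aerocytes, red cells and fat at the bottom, and OVA replicates 1 and 2 are the darkest for germinal centre B cells.

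Among transcription factors, rises outnumbered falls in lymphocytes, and endothelium and stroma gave falls alone. Of 46 factors of lymphocytes 19 rose and 5 fell. The risers were led by Egr2 (2.26), a brake on T cell activation that is also on the list of myeloid factors. Which cells carried the rise of Egr2 was not tested. Other risers were Bhlhe40 (0.90), the regulatory T cell factor Foxp3 (1.66), the vitamin D receptor Vdr (1.28), Irf4 (2.58) and the B cell coactivator Pou2af1 (2.92). Klf2 (-0.69), kept on in resting lymphocytes and in endothelium, fell. Stat6 (-0.22) and Gata3 (0.22), through which IL-4 specifies T helper 2 cells, were not called. Egr2 was at 7.002, 5.54, 4.59, 6.70 and 6.11 CPM in the saline libraries and 26.2, 27.5, 19.9, 36.5 and 33.1 CPM in the OVA libraries without overlap (log2 fold change 2.26, SE 0.22, adjusted p = 1.3e-05). Of 41 myeloid factors 15 rose, with Egr2 again among them, and 7 fell, among them the interferon factor Irf7 (-0.75). Further myeloid risers were Cebpe (3.28), needed for granule formation in eosinophils and neutrophils, Gata1 (1.54) and Gfi1 (2.12). Once the Rn45s share was a covariate, 5 and 4 stayed called higher and none lower. Myeloid falls numbered 11 without OVA replicate 3 or saline replicate 2 and 4 without saline replicate 5.

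Among 38 epithelial factors 9 rose and 9 fell. Leaving out OVA replicate 3 or saline replicate 1, 3 or 5 gave 5 rises, and leaving out OVA replicate 2 gave 5 falls. The goblet cell factors Foxa3 (4.57), Spdef (3.42) and Creb3l4 (1.36), the secretory factors Bhlha15 (2.12) and Xbp1 (0.50), the gland and cartilage factor Sox9 (3.47) and the multiciliation factors Mcidas (1.86) and Myb (1.06) rose. Whether epithelium or other cells carried the rises of Bhlha15, Xbp1 and Myb was not tested. Foxa3 was at 0.339, 0.659, 0.202, 0.218 and 0.183 CPM in the saline libraries and 8.49, 4.71, 14.1, 7.18 and 5.95 CPM in the OVA libraries. Every OVA library was above every saline library and replicate 3 was the highest (log2 fold change 4.57, SE 0.58, adjusted p = 6.5e-05). The alveolar factors Hopx (-1.38), Etv5 (-0.83) and Gata6 (-0.73) and Foxa2 (-0.70), a known restraint on goblet cell formation, fell, and the lung lineage factor Nkx2-1 (-0.25) and the ciliary factor Foxj1 (0.51) were not called. Adjusted for the Rn45s share, 2 stayed called higher and none lower.

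No endothelial or mesenchymal factor rose. Of 50 tested 27 fell (median -0.65), with Sox7 (-1.41), Sox18 (-1.03), Tbx3 (-1.31), Foxf2 (-1.38) and Foxf1 (-1.25) and Epas1 (-1.28), the HIF-2 subunit of hypoxia sensing. Epas1 was at 3788, 3944, 4866, 3412 and 4242 CPM in the saline libraries and 1284, 998, 2394, 2128 and 1561 CPM in the OVA libraries, and the groups did not overlap (log2 fold change -1.28, SE 0.26, adjusted p = 0.0019). None of these calls was kept with Rn45s as a covariate. Of 39 nuclear receptors 20 fell and 2 rose, Vdr (1.28) and Nr4a3 (0.75). The fallers held the receptors for aldosterone, Nr3c2 (-0.99), for glucocorticoids, Nr3c1 (-0.65), and for thyroid hormone, Thra (-1.02), and the lipid sensors Nr1h3 (-0.72), Ppara (-0.84) and Pparg (-0.97). Nr3c1, the target of inhaled steroids, was at 363, 322, 268, 288 and 336 CPM in the saline libraries and 221, 186, 186, 244 and 166 CPM in the OVA libraries (log2 fold change -0.65, SE 0.16, adjusted p = 0.0054). Every OVA animal was below every saline animal. In the fit with the Rn45s covariate 1 nuclear receptor stayed called higher and 2 lower. Of 16 Hox genes 6 fell and none rose, led by Hoxa7 (-1.71) and Hoxb5 (-1.32). In contrast, of 32 factors of proliferation 19 rose and 4 fell, led by Uhrf1 (2.65), E2f8 (2.51), Mybl2 (2.64) and Hells (2.52), and 7 of the rises were kept with the covariate. No Hox or proliferation factor stayed called lower in that fit.

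**Figure D3:**
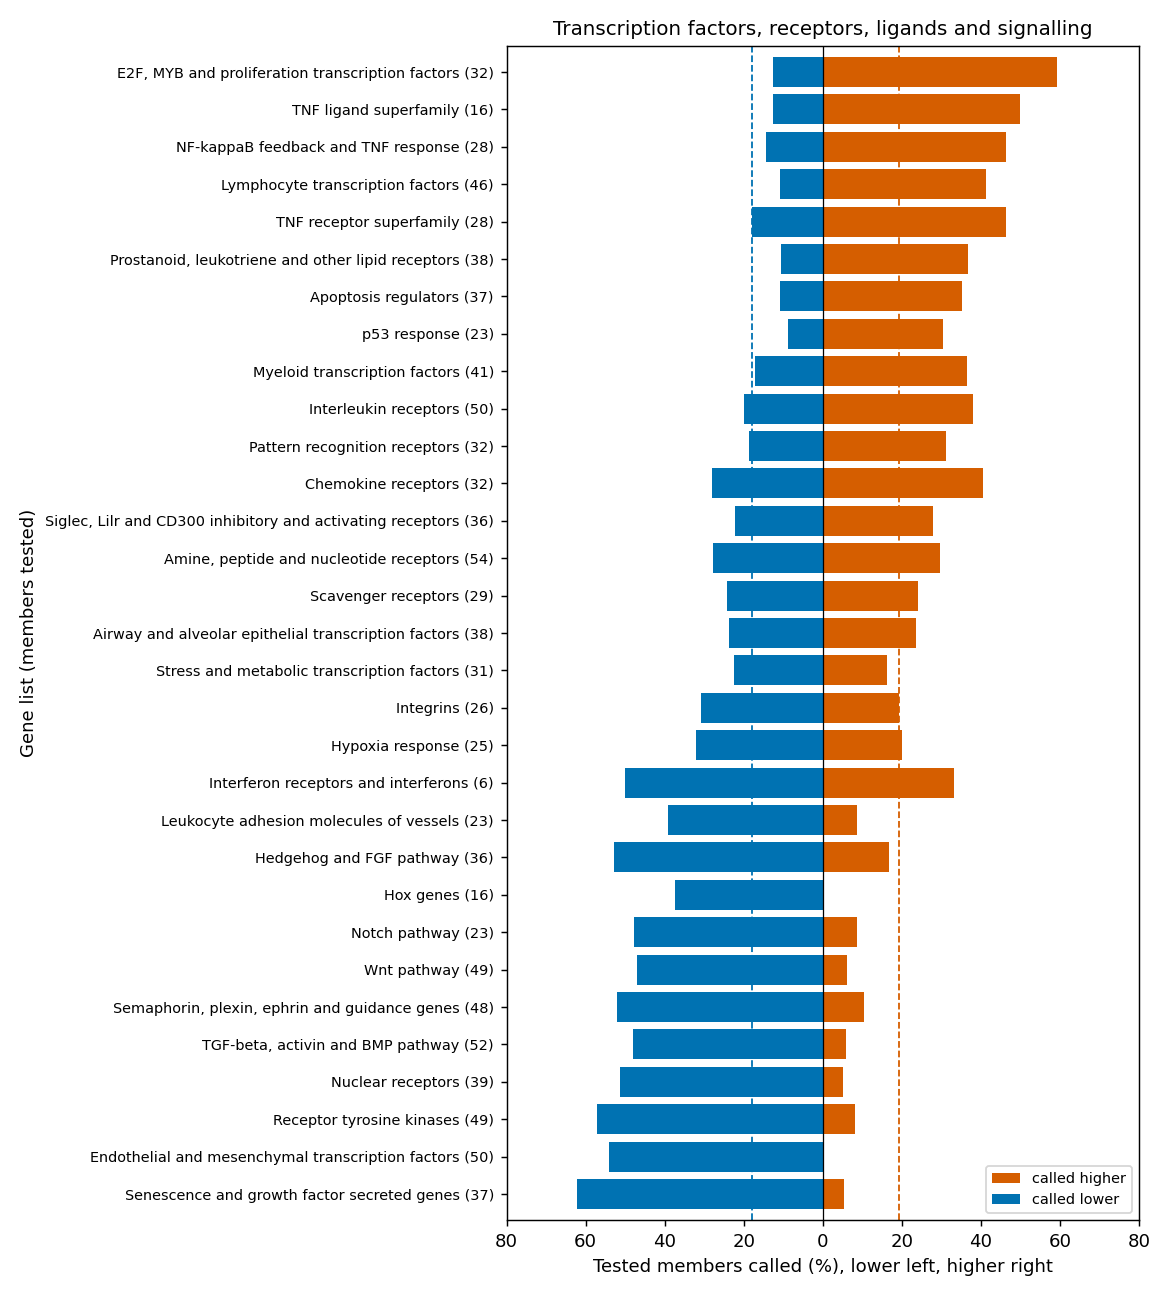
Percent of tested members called higher (orange, to the right) and lower (blue, to the left) for each list of transcription factors, receptors, ligands and signalling pathways, with the number tested after each name. Dashed lines mark the shares over all genes, 19.3% higher and 17.8% lower, and the vascular, stromal and growth factor lists extend to the left while the proliferation, TNF and lymphocyte lists extend to the right.

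Receptors gave calls in both directions. Of 50 interleukin receptor genes 19 rose and 10 fell, or 6 without OVA replicate 2. Risers were the receptors for IL-2, Il2ra (1.54), IL-9, Il9r (2.64), IL-31, Il31ra (2.84), IL-21, Il21r (2.70), IL-7, Il7r (1.35), and the decoy receptor for IL-1, Il1r2 (2.08). Il31ra, a subunit of the receptor for the itch cytokine IL-31, was at 0.188, 0.426, 0.353, 0.871 and 0.611 CPM in the saline libraries and 2.73, 3.47, 2.16, 3.97 and 5.13 CPM in the OVA libraries. It was low in all saline libraries and higher in all OVA libraries (log2 fold change 2.84, SE 0.35, adjusted p = 5.9e-05). The fallers included Il17rd (-1.16) of the IL-17 receptor family and the IL-6 family receptors Lifr (-0.79), Il6st (-0.60) and Il6ra (-0.40). The IL-4 receptor chain Il4ra (-0.14) was not called. Under the Rn45s covariate 7 stayed called higher and none lower.

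Of 32 chemoattractant receptors 13 rose and 9 fell. The eosinophil receptor Ccr3 (3.78), the T helper 2 receptors Ccr4 (2.40) and Ccr8 (2.98), and Ccr6 (2.36) and Ccr1 (1.29) rose. The fallers included the formyl peptide receptors Fpr1 (-3.33) and Fpr2 (-2.15), the C5a receptor C5ar1 (-1.26) and Cx3cr1 (-1.47), with S1pr1 (-0.86), the exit receptor of lymphocytes, which endothelium also carries. Fpr1 was at 5.53, 8.22, 6.41, 6.53 and 9.71 CPM in the saline libraries and 0.758, 0.827, 1.28, 0.410 and 0.205 CPM in the OVA libraries. All OVA animals lay far below all saline animals (log2 fold change -3.33, SE 0.44, adjusted p = 8.7e-05). With Rn45s as a covariate 5 stayed called higher and 4 lower.

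In the TNF family 8 of 16 ligands and 13 of 28 receptors rose. The ligands that rose included RANKL, Tnfsf11 (4.56), OX40 ligand, Tnfsf4 (3.62), CD30 ligand, Tnfsf8 (2.57), lymphotoxin alpha, Lta (3.06), and CD40 ligand, Cd40lg (2.17). The receptors of RANKL, OX40 ligand, CD30 ligand and CD40 ligand also rose: RANK, Tnfrsf11a (0.93), OX40, Tnfrsf4 (1.91), CD30, Tnfrsf8 (3.41), and CD40, Cd40 (0.69). So did 4-1BB, Tnfrsf9 (3.81), and the B cell survival receptor Tnfrsf13c (2.77). Tnfsf11 was at 0.339, 0.194, 0.303, 0.436 and 0.244 CPM in the saline libraries and 7.96, 13.6, 2.50, 6.22 and 6.15 CPM in the OVA libraries, with OVA replicate 2 the highest and no overlap (log2 fold change 4.56, SE 0.47, adjusted p = 1.8e-05). A smaller number fell, 2 ligands and 5 receptors, including Tnfrsf19 (-1.54), Tnfrsf12a (-1.20), Tnfrsf1a (-0.76) and Ltbr (-0.56). Once the Rn45s share was a covariate, 4 ligands and 2 receptors stayed called higher and none lower.

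Lipid mediator receptors gave 14 of 38 higher and 4 lower. The prostaglandin D2 receptor Ptgdr (4.25) led, with the prostacyclin receptor Ptgir (1.10), the prostaglandin E2 receptor Ptger4 (1.12), the platelet-activating factor receptor Ptafr (0.91) and the oxysterol receptor Gpr183 (1.56). Ptgdr was at 0.0753, 0.155, 0.101, 0.381 and 0.122 CPM in the saline libraries and 2.58, 2.23, 3.38, 4.45 and 3.38 CPM in the OVA libraries (log2 fold change 4.25, SE 0.46, adjusted p = 2e-05). The groups did not overlap and all saline values were close to 0. The second prostaglandin D2 receptor, Ptgdr2 (-0.76), and the leukotriene receptor Cysltr1 (0.15) were not called. Of 54 receptors for amines, peptides and nucleotides 16 rose and 15 fell. Risers included the alpha-2A adrenoceptor Adra2a (4.25), the substance P receptor Tacr1 (3.14), the serotonin receptors Htr7 (2.61) and Htr2a (1.51) and the histamine receptors Hrh1 (1.10) and Hrh2 (1.17). Adra2a was at 2.45, 2.13, 0.808, 0.980 and 1.59 CPM in the saline libraries and 24.0, 24.0, 52.4, 33.3 and 20.3 CPM in the OVA libraries, without overlap (log2 fold change 4.25, SE 0.61, adjusted p = 0.00016). Fallers included the receptors for vasoactive intestinal peptide Vipr2 (-1.55), angiotensin Agtr1a (-1.36), endothelin Ednrb (-1.23) and bradykinin Bdkrb2 (-1.12). The muscarinic receptors Chrm2 (-0.87) and Chrm3 (-0.24) were not called. Adjusted for the Rn45s share, 5 lipid and 3 amine or peptide receptors stayed called higher and none lower.

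Growth factors and their receptors mostly fell. Of 49 receptor tyrosine kinases 28 fell and 4 rose, among them Flt3 (1.28), Ltk (1.26) and Ros1 (0.94). Of 37 secreted growth factor and senescence genes 23 fell (median -0.75), with Pdgfb (-1.18), Pdgfd (-1.48), Igf2 (-1.29) and Bdnf (-1.30), and 2 rose, Igf1 (1.76) and Pdgfc (0.98). Igf1, an insulin-like growth factor that macrophages and fibroblasts make, was at 59.4, 20.6, 13.1, 22.4 and 26.1 CPM in the saline libraries and 106, 73.6, 72.1, 159 and 69.3 CPM in the OVA libraries. Saline replicate 1 was above the other saline animals, and the lowest OVA animal was above it (log2 fold change 1.76, SE 0.33, adjusted p = 0.001). In the fit with the Rn45s covariate 2 kinases stayed called higher and 3 lower, and of the secreted genes 1 stayed higher and 3 lower.

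In the morphogen pathways falls outnumbered rises. In the TGF-beta, activin and BMP pathway 25 of 52 fell, with the ligands Bmp6 (-1.90) and Bmp3 (-1.78), the co-receptors Tgfbr3 (-1.32) and Eng (-1.86) and the transducer Smad9 (-1.60), and 3 rose. The risers were the activin antagonist Fst (1.94), the BMP antagonist Nog (2.60) and the activin subunit Inhba (1.39). Fst was at 4.89, 1.40, 1.11, 2.50 and 2.56 CPM in the saline libraries and 8.26, 6.04, 14.3, 9.23 and 10.3 CPM in the OVA libraries, with no overlap (log2 fold change 1.94, SE 0.38, adjusted p = 0.0013). The call on Nog was lost on leaving out any of OVA replicates 1 and 3 and saline replicates 2, 3 and 4. Its groups overlap, at 0.188, 0.116, 0.0505, 0.109 and 0.183 CPM in the saline libraries and 1.36, 0.0827, 1.76, 0.684 and 0.103 CPM in the OVA libraries (log2 fold change 2.60, SE 0.88, adjusted p = 0.03). In the Wnt pathway 23 of 49 fell, with Wnt10b (-2.15), Wnt7a (-2.04), Fzd1 (-1.17) and Lrp5 (-1.12), and the 3 risers were the secreted inhibitor Dkk1 (2.30), the amplifier Rspo2 (1.12) and the ligand Wnt4 (0.72). In the Notch pathway 11 of 23 fell, with Notch1 (-0.84) and Hes1 (-0.91), and 2 rose. Under the Rn45s covariate no member of the 3 pathways stayed called higher, and 4, 7 and 3 stayed lower.

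Of hedgehog and FGF genes 19 of 36 fell, with the feedback inhibitors Spry1 (-1.66) and Spry2 (-0.99) and the receptors Fgfr4 (-1.42), Fgfr2 (-0.83) and Ptch1 (-0.69), and 6 rose. Fgf23, a hormone of phosphate balance made mainly in bone, was the largest riser among them, at 0.0753, 0, 0.151, 0.163 and 0 CPM in the saline libraries and 3.41, 2.81, 0.811, 2.74 and 3.18 CPM in the OVA libraries. It was close to 0 in every saline library and higher in every OVA library (log2 fold change 4.95, SE 0.60, adjusted p = 5e-05). Of semaphorin, ephrin and other guidance genes 25 of 48 fell and 5 rose, Sema4d (1.07), Sema7a (0.47), Sema4b (0.57), Plxnc1 (0.93) and Plxnb3 (1.36). Among feedback and target genes of NF-kappaB, the transcription factor of TNF signalling, 13 of 28 rose. They included the negative regulators Tnip3 (2.72), Tnfaip3 (0.98) and Nfkbie (1.51) and the chemokine Ccl20 (3.52), while Ier3 (-1.41) and Il1b (-0.75) fell. With Rn45s as a covariate 5 of the NF-kappaB rises and 2 of the falls were kept, 2 rises and 1 fall of hedgehog and FGF genes, and 1 rise and 2 falls of guidance genes.

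The unfolded protein response raises chaperones and export factors of the endoplasmic reticulum when a cell secretes heavily. Of 50 genes of that response and of secretory folding 22 rose and 1 fell (median 0.44). The folding enzyme Agr2 (5.42) and the stress sensor Ern2 (6.14), both of mucous cells, had the largest rises, followed by Mzb1 (3.73) of plasma cells, and the general genes rose less: Derl3 (2.96), Sdf2l1 (1.67), Edem1 (1.28), Manf (1.14), Hsp90b1 (0.85) and Hspa5 (0.62). Hspa5 (BiP), the central chaperone, was at 438, 483, 450.3, 431 and 526 CPM in the saline libraries and 703, 937, 624, 769.6 and 553 CPM in the OVA libraries. All 5 OVA values were above all saline values, by a modest margin (log2 fold change 0.62, SE 0.15, adjusted p = 0.0056). Its regulator Xbp1 was at 163, 163, 156, 154 and 167 CPM in the saline libraries and 229, 266, 211, 221 and 208 CPM in the OVA libraries, also without overlap (log2 fold change 0.50, SE 0.18, adjusted p = 0.043). Leaving out any 1 of the 10 animals ended the call on Xbp1 (adjusted p from 0.052 to 0.1), and its log2 fold change was -0.004 with the Rn45s covariate. The stress genes Ddit3 (-0.44) and Atf4 (0.34) were not called, and the member that fell was the phosphatase subunit Ppp1r15a (-0.45). Golgi and vesicle transport genes gave few calls, with 2 of 44 higher and 5 lower. Once the Rn45s share was a covariate, 2 of the folding genes stayed called higher and no transport gene stayed called.

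Promoters of these genes are shown because the same letters recur in them. The endoplasmic reticulum stress element (CCAAT, any 9 bases, CCACG) was searched on both strands in RefSeq promoter windows of GRCm38.p6 (250 bases before to 50 after the start), which 12410 of the tested genes had, some with several. It was present in 19 of 15633 windows of all tested genes, 0.122%, in 10 of 45 windows (22.2%) of the folding list, and in 7 of 18 (38.9%) of its members called higher. The 250 bases before the start are printed for 3 of them, 5′ to 3′ on the gene's strand, with each match in capitals: Hspa5 at chr2:34771840-34772089 (plus strand), Derl3 at chr10:75893148-75893397 (plus strand) and Hsp90b1 at chr10:86705445-86705694 (minus strand, 2 matches).
Hspa5: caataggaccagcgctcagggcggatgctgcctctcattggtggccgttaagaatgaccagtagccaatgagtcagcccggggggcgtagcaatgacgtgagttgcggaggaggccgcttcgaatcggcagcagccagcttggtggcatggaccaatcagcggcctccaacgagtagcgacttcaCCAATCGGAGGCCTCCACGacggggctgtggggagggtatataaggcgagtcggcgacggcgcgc
Derl3: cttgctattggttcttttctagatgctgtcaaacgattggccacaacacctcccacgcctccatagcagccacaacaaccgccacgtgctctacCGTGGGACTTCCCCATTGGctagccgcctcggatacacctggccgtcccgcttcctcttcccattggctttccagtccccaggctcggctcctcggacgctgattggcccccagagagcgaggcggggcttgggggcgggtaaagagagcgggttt
Hsp90b1: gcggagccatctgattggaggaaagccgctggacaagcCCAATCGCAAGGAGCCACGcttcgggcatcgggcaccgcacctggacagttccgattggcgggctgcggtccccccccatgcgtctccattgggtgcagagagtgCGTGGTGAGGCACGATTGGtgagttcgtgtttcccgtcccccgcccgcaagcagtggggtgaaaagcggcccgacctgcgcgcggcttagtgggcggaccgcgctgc

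A STAT6-type site (TTC, any 4 bases, GAA), whose fixed letters read the same on both strands, was in 868 of 15633 windows (5.55%). It was in 209 of 2896 windows (7.22%) of genes called higher, 142 of 2917 (4.87%) of genes called lower and 517 of 9820 (5.26%) of genes not called. Among genes called higher by 3 or more on the log2 scale 17 of 126 windows (13.5%) held it. Of these windows, those of Sprr2a1 and Sprr2a2 have the same 250 upstream bases. The general STAT spacing, with 3 bases between TTC and GAA, had 7.11% over all windows, 7.15% in genes called higher and 6.31% in genes called lower. In genes called higher by 3 or more it had 6.35%. The cell cycle homology letters TTTGAA, searched in the same way, were in 12.8% of all windows, 17.3% of those of genes called higher, 10.4% of those of genes called lower and 31% of those called higher by 3 or more. A higher share in the strongest rises was thus seen for TTTGAA as well as for the STAT6-type letters. It was not seen for the general STAT spacing. The interferon response type (GAAA, any 2 bases, GAAA) had 3.21% over all windows and 0.794% in the strongest rises. The sterol response type (TCAC, any base, CCAC) had 1.2 and 0.794%, and the stress element above 0.122 and 0%. In the strongest rises these last shares rest on 1 window or none. A match describes letters, not binding. The upstream windows of 2 such genes are printed with the match in capitals: Retnla at chr16:48842359-48842608 (plus strand), which encodes a protein of alternatively activated macrophages (8.15), and Pdcd1lg2 at chr19:29410669-29410918 (plus strand), whose values are given above.
Retnla: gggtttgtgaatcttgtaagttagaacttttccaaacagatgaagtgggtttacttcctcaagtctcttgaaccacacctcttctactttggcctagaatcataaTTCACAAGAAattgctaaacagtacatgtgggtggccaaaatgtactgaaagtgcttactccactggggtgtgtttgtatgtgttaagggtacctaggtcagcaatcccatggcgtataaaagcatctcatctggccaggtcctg
Pdcd1lg2: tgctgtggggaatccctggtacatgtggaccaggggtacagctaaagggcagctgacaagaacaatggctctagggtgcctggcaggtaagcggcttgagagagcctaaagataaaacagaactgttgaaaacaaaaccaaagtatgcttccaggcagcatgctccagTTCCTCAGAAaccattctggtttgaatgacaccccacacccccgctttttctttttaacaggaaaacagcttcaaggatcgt

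Genes that make mucus, fluid and defence proteins at the airway surface changed widely. Of 33 genes of mucin glycosylation and assembly 14 rose and 2 fell. They were led in size by the core-branching enzyme Gcnt3 (6.02), the fucosyltransferases Fut1 (4.13) and Fut2 (1.78) and the initiating transferases Galnt6 (1.79), Galnt12 (1.69) and Galnt7 (1.08). Gcnt3 was at 0.0753, 0.155, 0.101, 0.163 and 0.0611 CPM in the saline libraries and 4.17, 6.04, 15.5, 11.1 and 1.85 CPM in the OVA libraries. OVA replicates 3 and 4 were the highest and all OVA values exceeded all saline values (log2 fold change 6.02, SE 0.99, adjusted p = 0.0004). The saline values of Gcnt3 lay near or below 3 counts in a library, so the size of its fold change depends on the prior count of the fit. Of 33 secreted defence genes 15 rose and 7 fell. Risers were the lectin Itln1 (7.11), the acidic chitinase Chia1 (3.77), the protease inhibitor Slpi (3.90), the trefoil peptide Tff2 (4.83) and the antibody transporter Pigr (2.15), and fallers the lysozymes Lyz1 (-1.81) and Lyz2 (-1.37) and the secretoglobins Scgb3a2 (-2.26) and Scgb1a1 (-1.59). Chia1 was at 64.1, 73.9, 61.0, 62.4 and 75.6 CPM in the saline libraries and 755, 683, 987, 1368 and 817 CPM in the OVA libraries without overlap (log2 fold change 3.77, SE 0.40, adjusted p = 1.9e-05). Lyz1 and Lyz2 are near-identical copies between which counts may be exchanged. Adjusted for the Rn45s share, 2 glycosylation and 7 defence genes stayed called higher, and 1 defence gene lower.

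Among ion transport genes, an anion exchanger rose and the sodium channel fell. Of 46 channel and transporter genes 16 rose and 12 fell. The anion exchanger Slc26a4 (5.93) (pendrin), the potassium channel Kcnn4 (2.07) and the pump regulator Fxyd4 (5.10) rose. All subunits of the epithelial sodium channel, Scnn1a (-1.19), Scnn1b (-2.0) and Scnn1g (-1.50), and the water channels Aqp1 (-1.52) and Aqp5 (-1.56) fell. Slc26a4 was at 5.16, 8.76, 1.31, 5.45 and 5.37 CPM in the saline libraries and 321, 235, 296, 399.7 and 344 CPM in the OVA libraries, and the groups were far apart (log2 fold change 5.93, SE 0.57, adjusted p = 1.2e-05). Scnn1b was at 77.5, 127, 97.5, 90.4 and 96.9 CPM in the saline libraries and 18.5, 16.5, 33.2, 29.1 and 24.7 CPM in the OVA libraries, equally without overlap (log2 fold change -2.0, SE 0.27, adjusted p = 9.2e-05). The chloride channels Cftr (-0.14) and Ano1 (-0.13) were not called. In the fit with the Rn45s covariate 8 stayed called higher and 1 lower.

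In junctions and basement membrane falls outnumbered rises, and in collagens, protease inhibitors and complement rises outnumbered falls. Of 37 junction and keratin genes 15 fell, with Cldn18 (-1.39), Ocln (-0.97) and Tjp1 (-0.91), and 3 rose, including the pore-forming claudin Cldn2 (3.03). Of 48 basement membrane and proteoglycan genes 24 fell, with the laminins Lama3 (-1.04), Lamb3 (-1.01) and Lamb2 (-0.96), and 7 rose, or 4 without saline replicate 2 or 5. The risers included Vcan (1.23), a proteoglycan of provisional matrix, and Hapln1 (2.32), which links it to hyaluronan. The hyaluronan synthases Has2 (1.58) and Has3 (0.91) also rose and Has1 (-0.96) fell. Of 29 protease inhibitors 10 rose and 5 fell, with Serpina3n (2.34) and other members of the Serpina3 cluster, whose near-identical copies may exchange counts, among the risers. Of 38 genes whose symbols start with Col, collagens for the most part, 14 rose and 7 fell. In complement and coagulation 12 of 45 rose, with factor X, F10 (2.40), factor VII, F7 (2.05), complement factor I, Cfi (3.51), and C3 (1.21), and 7 fell, among them the endothelial anticoagulants Thbd (-1.24) and Tfpi (-0.68). Falls in that list numbered 3 or 4 without OVA replicate 1, 2 or 5 or saline replicate 5, and 11 without OVA replicate 3. F7, which starts clotting with tissue factor, was at 7.79, 11.04, 11.2, 11.1 and 9.89 CPM in the saline libraries and 32.7, 34.0, 42.9, 52.4 and 49.6 CPM in the OVA libraries, without overlap (log2 fold change 2.05, SE 0.22, adjusted p = 1.9e-05). With the Rn45s covariate no junction or basement membrane fall was kept. In that fit 1 junction, 1 basement membrane, 1 Col, 4 protease inhibitor and 5 complement or coagulation genes stayed higher. Of the Col falls 1 was kept. The median of the Col genes was 0.36 without the covariate and -0.09 with it.

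Genes of the respiratory chain gave few calls. Respiratory complex I had 2 of 36 genes higher and 3 lower, and complexes III to V 4 of 37 higher and 1 lower, below the shares over all genes in both directions. In the tricarboxylic acid cycle 7 of 34 fell and none rose, but 4 fell without OVA replicate 5 or saline replicate 5 and 2 without saline replicate 1. In the pentose phosphate pathway 5 of 12 fell and none rose. Of glycolysis genes 9 of 33 rose and 3 fell, led by the gluconeogenic Fbp1 (2.19) and by Pfkfb2 (1.11) and Pgk1 (0.73). The immunoproteasome and peptide loading genes gave no call in 13 by edgeR; 1 of them had an unadjusted p under 0.05, DESeq2 called 1 and limma-voom 0. Cytosolic ribosomal proteins had 4 of 54 higher and none lower. Of the calls in this paragraph 2 glycolysis genes stayed higher with the Rn45s covariate and none stayed lower.

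**Figure D4:**
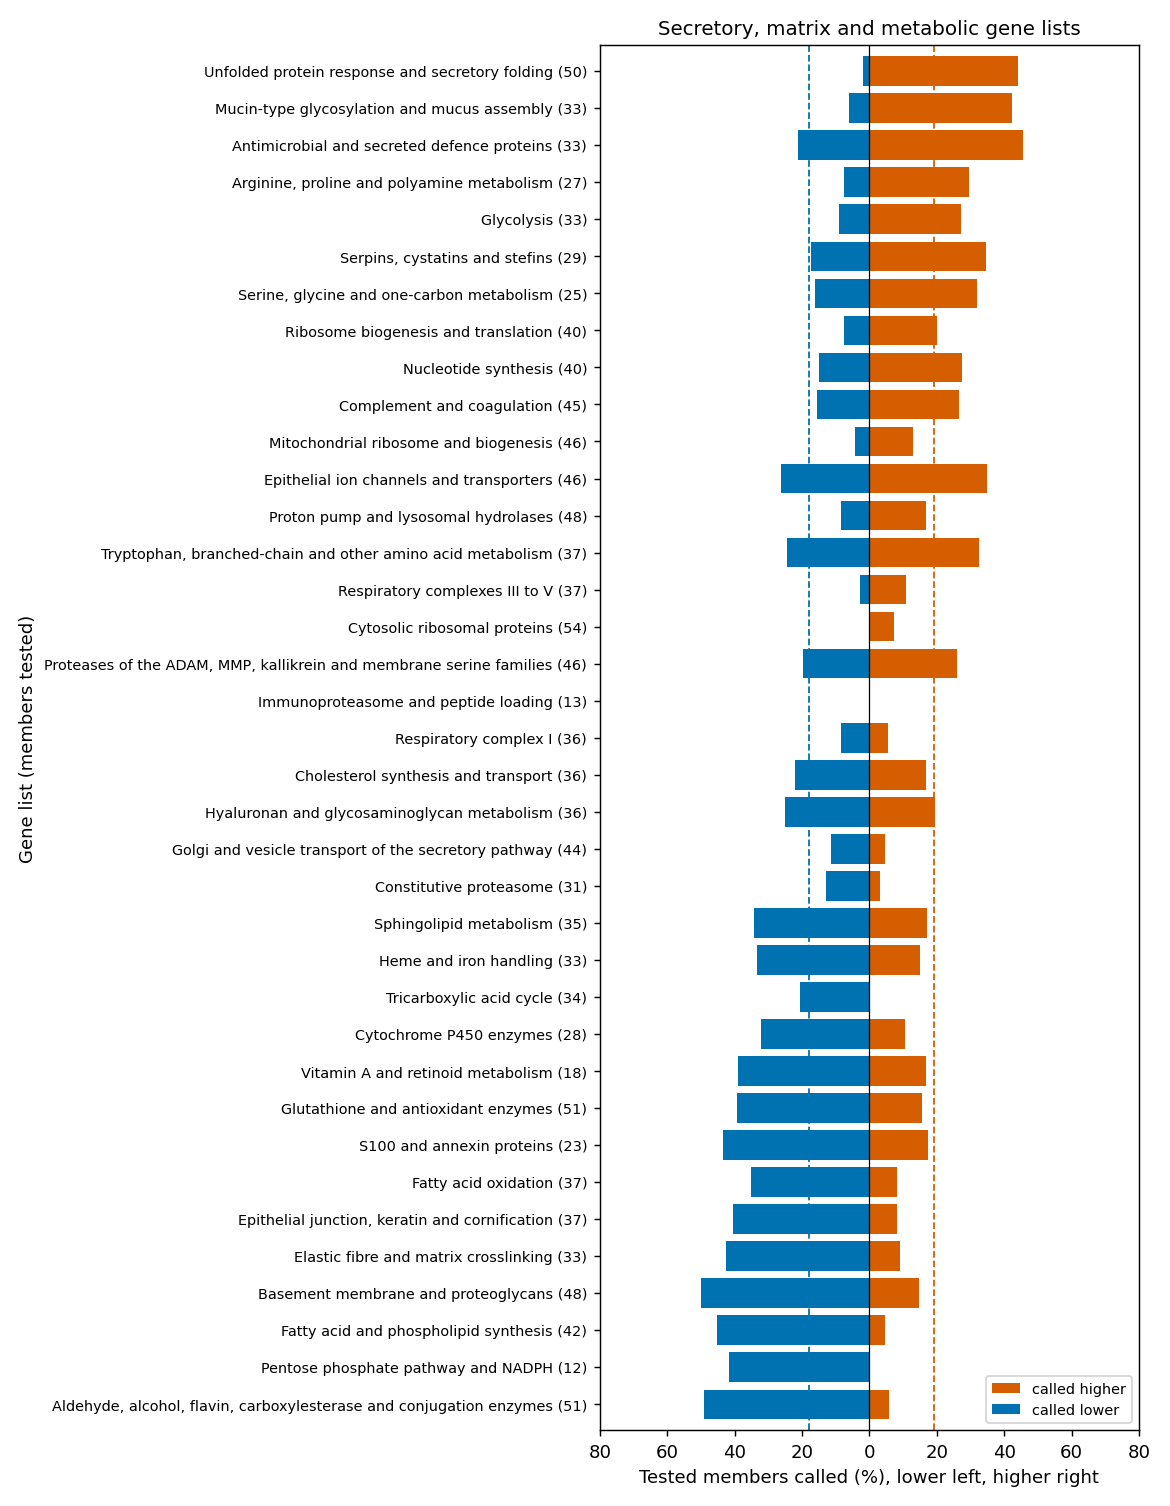
Percent of tested members called higher (orange, to the right) and lower (blue, to the left) for each list of secretory, matrix and metabolic genes, with the number tested after each name. Dashed lines mark 19.3% higher and 17.8% lower over all genes, and conjugation enzymes, basement membrane and lipid synthesis extend to the left while defence proteins, mucin glycosylation and unfolded protein response genes extend to the right.

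In amino acid, one-carbon and nucleotide metabolism rises outnumbered falls. Of 37 genes of tryptophan, branched-chain and other amino acids 12 rose and 9 fell. The cystine importer Slc7a11 (2.25), the branched-chain aminotransferase Bcat1 (5.15), the secreted amino acid oxidase Il4i1 (3.53) and the tryptophan-degrading Tdo2 (2.84), Kynu (2.1) and Kmo (1.45) rose, while Ido1 (0.70) was not called. Il4i1 was at 5.65, 4.69, 6.97, 8.60 and 4.28 CPM in the saline libraries and 96.8, 144, 29.8, 34.7 and 44.4 CPM in the OVA libraries. OVA replicates 1 and 2 were the highest, and even the lowest OVA animal was well above the highest saline animal (log2 fold change 3.53, SE 0.45, adjusted p = 6.3e-05). Slc7a11 was at 7.60, 7.60, 6.86, 8.77 and 8.18 CPM in the saline libraries and 28.3, 46.9, 23.0, 51.6 and 35.8 CPM in the OVA libraries, also without overlap (log2 fold change 2.25, SE 0.21, adjusted p = 9.5e-06). The fallers included mitochondrial genes of branched-chain degradation, Bckdha (-0.84), Bckdhb (-0.83), Ivd (-0.78) and Mccc2 (-0.86). In one-carbon metabolism 8 of 25 rose and 4 fell, with Mthfd2 (1.69), Mthfd1l (1.91), Shmt1 (1.13) and Psat1 (1.13) among the risers and the sulphur amino acid enzymes Cbs (-1.94) and Cth (-0.68) among the fallers. In nucleotide synthesis 11 of 40 rose, with Rrm2 (3.09), Tk1 (1.78) and Ada (1.87), and 6 fell, with Impdh1 (-1.03) and Dguok (-0.86). In arginine and proline metabolism 8 of 27 rose and 2 fell, with Gatm (2.30), Pycr1 (1.78), Aldh18a1 (1.08) and Slc7a2 (0.97) among the risers; Nos2 (0.13) was not called. Under the Rn45s covariate 6, 3, 2 and 3 members of the 4 lists stayed called higher, and 3, 0, 1 and 0 lower.

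Among genes of detoxification and lipid handling falls outnumbered rises. Of 51 aldehyde, alcohol, ester and conjugation enzymes 25 fell and 3 rose (median -0.72), with Aldh2 (-1.64), Ephx1 (-1.20), Aox1 (-0.91) and Maob (-1.44) among the fallers. Of 28 cytochrome P450 genes 9 fell and 3 rose, with Cyp2f2 (-2.75) of club cells and Cyp4b1 (-2.18) falling furthest of those named. Cyp4b1 was at 383, 529, 409.5, 304 and 412 CPM in the saline libraries and 63.3, 59.3, 144, 109 and 75.1 CPM in the OVA libraries, without overlap (log2 fold change -2.18, SE 0.30, adjusted p = 0.00013). Of 51 glutathione and antioxidant genes 20 fell, with the transferases Gsta3 (-2.20) and Gstm1 (-2.27), the superoxide dismutase Sod1 (-1.13) and the oxidase Nox1 (-2.97), and 8 rose. The risers were led by the airway peroxide generator Duox1 (4.74), the transferase Gsto1 (2.01), the rate-limiting synthesis subunit Gclc (1.04) and the metallothioneins Mt1 (1.2) and Mt2 (1.52). Gclm, the partner subunit of Gclc, fell. Duox1 was at 0.452, 0.388, 0.0505, 0.218 and 0.122 CPM in the saline libraries and 4.02, 8.10, 4.32, 10.5 and 9.02 CPM in the OVA libraries (log2 fold change 4.74, SE 0.65, adjusted p = 0.00011), and Gsta3 was at 99.7, 100.3, 97.0, 93.9 and 97.8 CPM in the saline libraries and 20.01, 12.6, 31.6, 22.4 and 19.8 CPM in the OVA libraries (log2 fold change -2.20, SE 0.28, adjusted p = 6e-05). Neither gene overlapped between the groups. With Rn45s as a covariate 4 enzymes of the first list, 2 P450 genes and 5 antioxidant genes stayed called lower.

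Of fatty acid and phospholipid synthesis genes 19 of 42 fell (median -0.66), or 12 without OVA replicate 2 or saline replicate 1. They included surfactant lipid genes of alveolar type 2 cells, the remodelling enzyme Lpcat1 (-1.24), the rate-limiting Pcyt1a (-0.60) and the lamellar body transporter Abca3 (-0.75). The lipogenic Fasn (-1.60) and Scd1 (-1.33) were not called. In fatty acid oxidation 13 of 37 fell, with Acaa1b (-2.14), Hadh (-0.63) and Acadvl (-0.61), and 3 rose, among them the ketone enzyme Bdh1 (1.75) and the coactivator Ppargc1a (1.02). Of cholesterol genes 6 of 36 rose and 8 fell, near the shares over all genes, and 3 rose without OVA replicate 2 or saline replicate 1 or 4. Ch25h (2.42), which makes a precursor of the ligand of Gpr183, and the synthesis enzyme Cyp51 (0.79) rose, and Abcg1 (-0.60), a cholesterol exporter, fell. Of vitamin A genes 7 of 18 fell, with the storage enzyme Lrat (-1.80), and 3 rose, with the retinoic acid synthesis enzyme Aldh1a3 (2.23). Lrat was at 192, 210.0, 298, 180.0 and 202 CPM in the saline libraries and 61.5, 39.1, 55.6, 98.8 and 54.8 CPM in the OVA libraries, without overlap (log2 fold change -1.80, SE 0.35, adjusted p = 0.0012). Of heme and iron genes 11 of 33 fell, with the iron exporter Slc40a1 (-0.85), and the transferrin receptor Tfrc (1.04) and the metalloreductase Steap1 (2.53) rose. Heme and iron falls numbered 4, 5 and 6 without OVA replicates 1, 2 and 5, and 6 without saline replicate 5. Once the Rn45s share was a covariate, 2 lipid synthesis genes and 1 oxidation gene stayed called lower, and no vitamin A gene stayed called in either direction. Among cholesterol genes 2 rises and 1 fall were kept, and among heme and iron genes 2 rises and none of the falls.

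Gene families were also grouped by symbol. Of 63 genes whose symbols start with Hist, replication-dependent histones for the most part, 49 rose and none fell (median 2.11), and of 10 Mcm genes, which license DNA replication, 8 rose. Of 19 Snora genes, small nucleolar RNAs, 8 rose (median 1.48). Histone messages and small nucleolar RNAs lack the usual poly(A) tail, and Rn45s (2.02) and the nuclear RNAs Malat1 (0.74), Kcnq1ot1 (1.01) and Xist (1.01) were among the 10 largest gains in mean CPM. Adjusted for the Rn45s share, 5 Hist, 3 Mcm and 0 Snora genes stayed called higher. The part of RNA class in the rises of these families was not tested. Of 19 Ccl chemokines 11 rose and none fell, and 10 of these rises were kept with the covariate. Of 14 Klf factors 9 fell and none rose, and of 25 Arhgef exchange factors 15 fell and 3 rose. With the covariate 1 Klf fall and 0 Arhgef falls were kept. None of the 14 Trappc or 10 Cnot genes, subunits of vesicle tethering and of messenger RNA deadenylation complexes, was called by edgeR; at an unadjusted p under 0.05 there were 2 and 0, DESeq2 called 1 and 0, and limma-voom called 0 in either family.

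Expression was more spread among the OVA animals than among the saline animals. Over 11348 genes with a mean of 10 CPM or more in either group, the median standard deviation of log2 CPM was 0.17 with saline and 0.27 with OVA. Every OVA library held fewer counts than every saline library. Rn45s shares also ranged more widely with OVA, from 4.31 to 12.4% against 1.19 to 2.88% with saline. The part of depth and RNA class in the spread was not tested. Fat cell and heart muscle lists, with 1 call between them, had the widest range of scores among the OVA animals, and germinal centre B cells the next widest. The germinal centre score, the mean log2 CPM over the list minus the saline mean, was 2.30 and 2.99 in OVA replicates 1 and 2 and 0.76 to 0.91 in the other 3. Nuggc, a germinal centre GTPase, was at 0, 0.116, 0.0505, 0.0544 and 0 CPM in the saline libraries and 11.9, 27.4, 1.89, 1.16 and 1.54 CPM in the OVA libraries, with the same pair highest (log2 fold change 7.34, SE 1.33, adjusted p = 0.00079). The saline values of Nuggc lay near or below 3 counts in a library, so the size of its fold change depends on the prior count of the fit. Glycam1, a mucin-like ligand made by the high endothelial venules of lymphoid tissue, had the widest spread of those genes among the OVA animals and was chosen after its values were seen. It was at 5.46, 0, 0, 0.490 and 2.63 CPM in the saline libraries and 52.3, 226, 0.675, 0.137 and 0 CPM in the OVA libraries, and was not called (adjusted p = 0.055). It was high in OVA replicates 1 and 2 and near 0 in the other OVA animals. Its log2 fold change was 4.99, and -0.72 with the Rn45s covariate (adjusted p = 0.9).

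Other groups of genes ranked the OVA animals differently. Secreted defence scores were highest in replicates 3 and 4 (2.16 and 1.76) and 0.83 to 1.33 in the others, and ion transport scores were 0.98 and 0.97 in replicates 3 and 4 and 0.31 to 0.60 in the others. Aerocyte scores were closest to saline in the same pair, at -0.87 in each, and lowest in replicate 2, at -1.62. Rn45s shares were lowest in replicates 4 and 3, at 4.31 and 4.99%, so the order of the animals by these scores and by that share runs partly together, and its part in the scores was not tested.

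Of the 34 genes printed library by library, 32 were called, and 23 of those were also called in the same direction with the Rn45s share as a covariate. The 9 whose call was lost were Epas1 (-0.61 with the covariate), Fst (1.33), Hspa5 (0.49), Lrat (-0.74), Nog (1.83), Nr3c1 (-0.23), Nuggc (4.78), Scube2 (-1.11) and Xbp1 (-0.004). Among those that kept it, 13 moved by more than 1.5-fold, all of them towards 0. The risers of that kind were Gcnt3 (5.22), Foxa3 (3.69), Duox1 (3.63), Pdcd1lg2 (3.62), Tnfsf11 (3.58), Adra2a (2.93), Ccl22 (2.65) and Il4i1 (2.51), and the fallers Fpr1 (-2.15), Gsta3 (-1.47), Cyp4b1 (-1.28), Scnn1b (-1.20) and Kdr (-0.84). Chia1 (3.77), Slc26a4 (5.54), Fgf23 (4.74) and F7 (1.91) were close to their values without it. Leaving out any 1 of the 10 animals kept the call of 30 of the 32 genes, the exceptions being Nog and Xbp1.

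**Figure D5:**
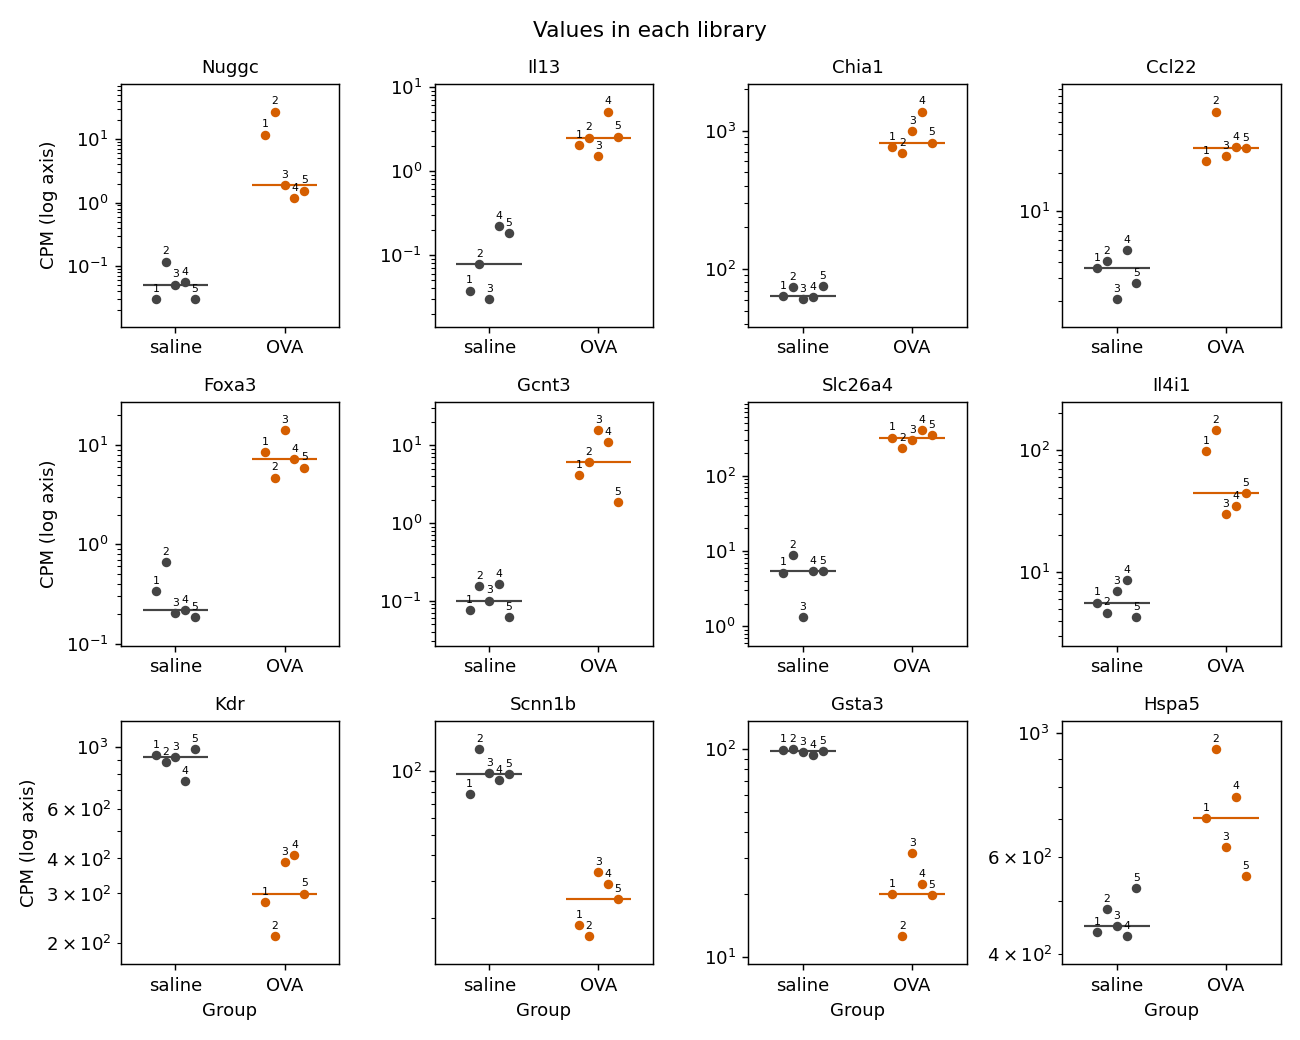
CPM in each library (log axis, 0 drawn at 0.03) for 12 genes described in the text, with the 5 saline libraries on the left of each panel, the 5 OVA libraries on the right, and a bar at each group's median. Numbers beside the points are the replicates. Nuggc is highest in OVA replicates 1 and 2 and Foxa3 and Gcnt3 in replicate 3, while Kdr, Scnn1b and Gsta3 are lower in every OVA library than in any saline library.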

How the data were processed

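RNA from snap-frozen whole lungs was sequenced, 1 strand-specific library per animal. Per the labels' protocols ribosomal RNA was depleted and messenger RNA was also selected on oligo-dT beads; which RNA classes were retained was not tested. The authors deposited expected counts per gene symbol, not normalised. Per the submitters' processing notes the tools were Bowtie2 2.1.0 and RSEM 1.2.15 and the build was the human hg38, although the symbols are those of mouse genes. RSEM shares a read that fits several genes among them.

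Expected counts were rounded. Of 24054 genes, 15905 passed edgeR's filterByExpr, and the 15 libraries were fitted together by quasi-likelihood with TMM scaling (edgeR 4.0.16, R 4.3.3). Tests were two-sided with Benjamini-Hochberg adjustment over all genes tested, and the standard error (SE) was taken from the F statistic. CPM use TMM-scaled totals, and 3 counts in a library are 0.109 to 0.299 CPM. On simulated counts for this comparison, among 15785 genes tested, calls were made for 62 of 99 genes with a 2-fold and 90 of 98 with a 4-fold change, with 6 false calls. The simulation used the spread fitted to these data, changed a small set of genes up and down alike, and planted no difference in Rn45s share. It therefore cannot measure errors from a change as wide as that seen here or from RNA class. Same-numbered animals did not deviate together (r from -0.20 to 0.35), so no block was used. Replicates are labelled as biological. Alternatives changed the scaling, filter, test, libraries, block, Rn45s handling and fold threshold, and left out each animal.

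The comparison and the 101 gene lists (3070 entries, 3055 matched, 2823 tested) were chosen with earlier results of these data known, so no list was given a test. A list's named genes are members with small adjusted p in either direction and its first members; further members were chosen after their values were seen. Over all genes, those with the smallest p, the largest difference in mean CPM, or the narrowest interval around no change were named. Some genes that met these rules are not reported here.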

Additional observations from a re-analysis of the deposited data

Results flagged for a closer look

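In 82 groups of 5 values looked at, 9 had a highest or lowest library separated from the nearest other by more than 0.71 of the group's range; chance gives about 1 in 20. The fat cell gene Adipoq was at 233 CPM in saline replicate 1 against 0.101 to 34.1 CPM in the other saline libraries, and at 42.3 CPM in OVA replicate 1 against 0.513 to 3.31 CPM in the other OVA libraries. Of OVA replicate 2, Glycam1 was at 226 CPM against 0 to 52.3 CPM in the other OVA animals, and the chemokine Ccl22 at 60.3 CPM against 24.9 to 31.7 CPM. The hormone Fgf23 was at 0.811 CPM in OVA replicate 3 against 2.74 to 3.41 CPM. Among saline animals, Igf1 was at 59.4 CPM in replicate 1 against 13.1 to 26.1 CPM, and Lrat at 298 CPM in replicate 3 against 180.0 to 210.0 CPM. Saline replicate 4 had 0.381 CPM of Ptgdr against 0.0753 to 0.155 CPM, and a germinal centre B cell score of 0.17 against -0.07 to -0.00.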

How the results depend on the processing

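Under RLE, upper quartile or no scaling factors, no low-count filter, DESeq2, limma-voom, the 10 saline and OVA libraries alone or Rn45s left out of the counts, 5857 to 6519 genes were called, against 5898, and at most 4 of the named genes lost their call under any of these settings. The split of calls moved most under upper quartile scaling, to 3500 higher and 2396 lower from 3069 and 2829. With a replicate block 4626 genes were called (2363 higher, 2263 lower) and 14 of 330 named calls were lost. Leaving out 1 animal at a time gave 4776 to 6396 calls, 2425 to 3025 higher and 2279 to 3377 lower, and 5 to 15 named calls were lost. Against a 1.5-fold change in place of none, 1621 genes were called, 1089 higher and 532 lower. The log2 Rn45s share as a covariate left 750 calls, 486 higher and 264 lower, and kept 126 of 330 named calls. In a fit of the 10 libraries with that covariate, added after the data were seen, 106 were left, 97 higher and 9 lower. That fit kept 39 of 328 named calls. Named genes of opposite sign under the covariate were Rn45s itself (-0.083), Sema4b (-0.001) and Xbp1 (-0.004), and in the 10-library fit Rn45s (-0.08), Wnt4 (-0.005), Il1b (0.021) and Sftpc (0.007). None of these 7 values passed the threshold; the cause was not tested. Depth was lower with OVA than with saline in every library, and genes near 3 counts in a library cannot be compared at this depth.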
